A study of Mus musculus with 4 samples.

Results

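The insulin-like growth factor (IGF) genes of the fibroblast-rich stroma of a mouse melanoma are described here across cell classes. The members were 9 of the 33696 genes counted, taken by name: the ligands Igf1 and Igf2, the receptor Igf1r, and the binding proteins Igfbp2, Igfbp3, Igfbp4, Igfbp5, Igfbp6 and Igfbp7. They were read in 22691 of 24489 cell barcodes, those with 500 to 6000 genes and at most 10% of their UMIs from mitochondrial genes. The cells came from B16-F1-OVA tumors, a melanoma line carrying ovalbumin, grown in the peritoneal cavity of C57Bl/6-background mice for 14 days. All 4 libraries were sorted as PDPN-high, CD45neg and CD31neg cells from Cxcl13-cre-tdTomato X R26R-eGFPflox mice, and no other treatment is given. In these mice the Cxcl13 promoter drives both cre and tdTomato, so that tdTomato reports current Cxcl13 activity and eGFP reports that cre was active in a cell or in its ancestors. The libraries were 1 each of tdTomatoneg eGFP+, tdTomato+ eGFPneg, tdTomato+ eGFP+ and tdTomatoneg eGFPneg cells. Male and female mice were used, and the number and age of the animals behind each library are not given in the sources used here.

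IGF-1 and IGF-2 are secreted growth factors that signal through the IGF-1 receptor, a receptor tyrosine kinase coupled to insulin receptor substrates, PI3-kinase and AKT. Most circulating and tissue IGF is held by binding proteins, which carry it, shield it from the receptor or release it when they are cut by proteases such as PAPP-A. IGFBP-6 prefers IGF-2 over IGF-1, and IGFBP-7 binds IGFs only weakly and is mainly a matrix and vessel-associated protein. Fibroblasts are a known source of IGF-1 and of several of the binding proteins in many tissues.

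Kept cells numbered 6006, 4952, 920 and 10813 in the order of libraries given above, with median UMIs per cell from 5607 to 9154, and 57 barcodes occurred in more than 1 library. Each level below is in CPM, the usual scaling of a count by its total: the UMIs of a gene summed over the cells of a class, relative to all UMIs of that class, with an exact 95% Poisson interval. A 3′ UMI counts a transcript end whatever the transcript's length, so levels of different genes were set side by side without a length scale. There was 1 library for each sorted population and no replicate. No test between populations was therefore possible. Classes were drawn from the same cells whose genes are compared, so differences between classes are given as descriptions, with no p-value, and all intervals cover counting error only. Differences between classes were read inside each library that held at least 50 cells of both, and a gene was called higher or lower when its log2 fold passed 1 the same way in every such library.

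Clustering without the IGF genes gave 9 classes. The 4 that the description turns on were 1842 Pi16-positive cells, 3464 matrix-gene cells (high in Mfap4 and Lum), 3829 mesothelial-gene cells (high in Msln and Upk3b) and 622 melanoma cells (high in Dct, Pmel and Mlana). Lum did not separate matrix-gene from Pi16-positive cells, at 496 and 512 CPM, whereas Mfap4 stood at 277 and 26.2 CPM. The others were 4677 Serpinb2-gene cells, 1230 cycling matrix-gene cells, 4395 cycling mesothelial-gene cells, 594 immune cells and 2038 cells that stayed unnamed, which made up 16.2, 6.70, 5.87 and 6.31% of the libraries. The threshold for naming was set after the clusters had been seen, and it was lower for cycling groups. Mesothelial-gene markers summed to 797 CPM in unnamed cells, against 756 CPM in cycling mesothelial-gene and 1621 CPM in mesothelial-gene cells. The 21475 cells outside the melanoma and immune classes are called collagen-expressing here. They include the mesothelial-gene cells, which held keratin Krt19 at 380 CPM, and whether the label fibroblast fits all of them was not tested. Endothelial markers summed to at most 24.5 CPM in any class and mural markers to at most 43.6 CPM, so that neither cell type formed a class.

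The Pi16-positive class has limits that touch every value given for it. Its median depth was 1741 UMIs per cell, 0.311 of the median of the tdTomatoneg eGFPneg library, and that library held 1738 of its 1842 cells. Its leading genes by fold were Inmt, Opcml and Apod, and Pi16 stood 13th, at 1244 CPM against 33.3 CPM in the other cells. Among those, matrix-gene cells held Pi16 at 161 CPM and cycling matrix-gene cells at 78.6 CPM. The class was named by the mean log2 ratio of its markers Pi16, Dpp4, Ly6c1, Cd55, Sema3c and Ackr3. Each of these was highest in this class, Cd55 by the smallest margin. Of its cells that carried an Xist UMI or a UMI of a Y-linked gene but not both, 98.8% carried Xist, against 53.5% in the matrix-gene and 39.7% in the mesothelial-gene class, so mouse sex and class cannot be told apart for it. The unnamed class was one-sided the other way, with 13.5% carrying Xist and the Y-linked gene Uty among its leading genes, and the same limit holds for its values.

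Igf1 was highest in matrix-gene cells, Igfbp7 led the binding proteins there, and Igfbp6 led in mesothelial-gene cells. The upstream sequences of these 3 genes are printed because the main contrast between classes rests on them. Each is the 250 bases before the RefSeq gene start in GRCm38.p6, 5′ to 3′ on the gene's strand; the counts themselves were made on GRCm39. Igf1 is read from chr10:87860861-87861110 on the plus strand, Igfbp6 from chr15:102143936-102144185 on the plus strand, and Igfbp7 from chr5:77408046-77408295 on the minus strand. Capitals mark every match, on either strand, to the TATA motif TATAAA, the GC box GGGCGG or the CCAAT box, which is CCAAT.
Igf1: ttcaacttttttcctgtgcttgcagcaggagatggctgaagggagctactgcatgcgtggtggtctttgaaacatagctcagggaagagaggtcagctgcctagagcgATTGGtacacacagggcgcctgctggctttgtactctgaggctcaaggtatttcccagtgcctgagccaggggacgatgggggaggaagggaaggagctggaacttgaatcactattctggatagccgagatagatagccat
Igfbp6: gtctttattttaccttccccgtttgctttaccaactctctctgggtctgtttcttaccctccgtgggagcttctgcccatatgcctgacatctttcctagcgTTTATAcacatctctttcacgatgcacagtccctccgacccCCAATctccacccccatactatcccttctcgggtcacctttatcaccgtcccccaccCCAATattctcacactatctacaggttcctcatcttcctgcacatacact
Igfbp7: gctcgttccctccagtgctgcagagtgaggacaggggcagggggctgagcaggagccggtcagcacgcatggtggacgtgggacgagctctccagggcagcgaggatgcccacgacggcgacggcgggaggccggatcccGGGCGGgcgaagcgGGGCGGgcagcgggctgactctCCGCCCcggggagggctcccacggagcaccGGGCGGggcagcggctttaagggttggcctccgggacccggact
The Igf1 window held 1 CCAAT match. Igfbp6 held 1 TATAAA and 2 CCAAT matches, and Igfbp7 held 4 GGGCGG matches and none of the other motifs. Among 32851 promoter windows of this length, 12.4% held TATAAA, 32.7% GGGCGG and 33.8% CCAAT. The matches are letters in a window and no evidence that a factor binds there.

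Igf1 (ENSMUSG00000020053), the main ligand gene of these sorted cells, reached 1530 CPM (95% 1515 to 1545) in matrix-gene cells. By library it stood at 1271 CPM in tdTomatoneg eGFP+, 1942 in tdTomato+ eGFPneg, 915 in tdTomato+ eGFP+ and 1514 in tdTomatoneg eGFPneg matrix-gene cells. Mesothelial-gene cells held 171, 186, 164 and 161 CPM in the same libraries, so the lowest matrix-gene value lay above every mesothelial-gene value. The cycling matrix-gene class followed at 1107 CPM, with a library range that overlapped that of the matrix-gene class and no other. Serpinb2-gene cells stood at 311 CPM, and cycling mesothelial-gene, Pi16-positive, mesothelial-gene and unnamed cells lay between 138 and 189 CPM with library ranges that overlapped from each class to the next. Melanoma cells were lowest at 58.3 CPM, from 21.7 to 76.8 CPM by library.

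**Figure D1:**
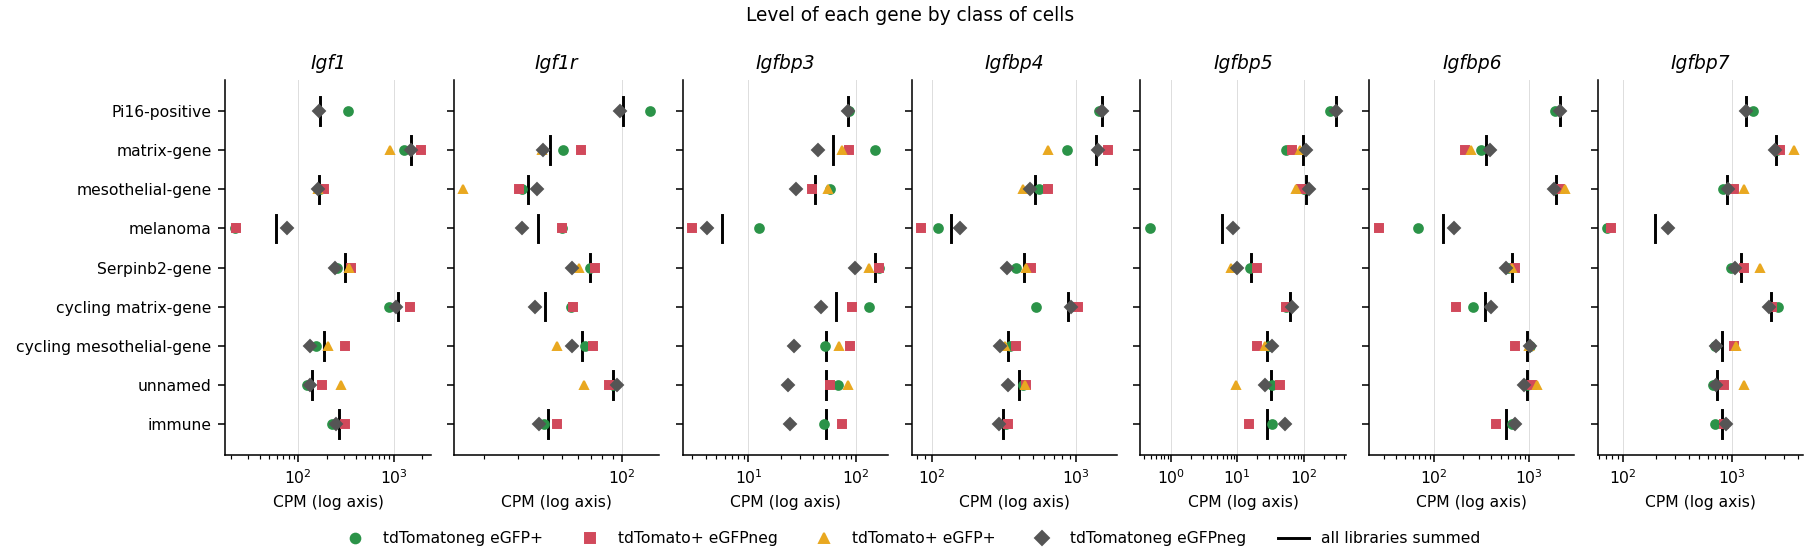
Level of 7 IGF genes in CPM (log axis) for each of 9 cell classes. Points are libraries with at least 50 cells of the class, the black bar is the class summed over all libraries. Igf1 and Igfbp7 stand highest in the matrix-gene classes, at 1530 and 2505 CPM, and Igfbp6 in the Pi16-positive and mesothelial-gene classes, at 2083 and 1884 CPM.

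Igf2, the second ligand, was near absent. A single UMI in 1 cycling matrix-gene cell of the tdTomatoneg eGFPneg library was all that 201325235 UMIs of 22691 cells held. At this depth a count of 3 would be 0.0149 CPM or 0.0132% of cells, and Igf2 lay under both.

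The spread of Igf1 among cells was read at equal depth by drawing 1000 UMIs from every cell that had as many, because classes differed in depth. An Igf1 UMI was then found in 67.2% of matrix-gene, 58.7% of cycling matrix-gene, 25.1% of Serpinb2-gene, 15.3% of mesothelial-gene, 12.5% of Pi16-positive and 6.34% of melanoma cells. The 10% of matrix-gene cells with most Igf1 held 33.6% of that class's Igf1 UMIs. In mesothelial-gene cells the top 10% held 71.0%, a share that also reflects the low total of 677 UMIs in 3733 thinned cells. As sequenced, 27.8% of melanoma cells had an Igf1 UMI at a median of 17636 UMIs per cell, against 43.6% of mesothelial-gene cells at 5220 and 21.5% of Pi16-positive cells at 1741. Counted by cell, 622 melanoma cells held 655 Igf1 UMIs, 3829 mesothelial-gene cells 4028 and 1842 Pi16-positive cells 681. The matrix-gene class stood apart on either reading, with 41910 Igf1 UMIs in 3464 cells and 93.1% of cells as sequenced. The order of melanoma, mesothelial-gene and Pi16-positive cells depended on depth, and the part of RNA from other cells in their Igf1 was not tested.

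Igf1r (ENSMUSG00000005533), the receptor, varied least among the 7 members above 10 CPM. Levels ran from 33.6 CPM (95% 31.3 to 35.9) in mesothelial-gene cells to 101 CPM (91.5 to 112) in Pi16-positive cells, with 90.7 CPM in unnamed, 68.9 in Serpinb2-gene, 62.7 in cycling mesothelial-gene, 43.6 in matrix-gene and 37.6 in melanoma cells. By library matrix-gene cells stood at 50.7, 62.0, 39.7 and 39.9 CPM, and mesothelial-gene cells at 31.2, 30.2, 15.8 and 37.3 CPM. The Pi16-positive class held 139 and 98.5 CPM in its 2 libraries, both above the library values of every other class, though the first rests on 21 UMIs. At equal depth the unnamed class came first instead, with 244 Igf1r UMIs in 1852 cells thinned to 1000 UMIs, against 150 in 1577 Pi16-positive cells. From Serpinb2-gene cells down to mesothelial-gene cells, each class overlapped the next in its library range. Thinned shares were low throughout, at 11.4% of unnamed, 8.50% of Pi16-positive and 2.60% of melanoma cells.

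Among the binding proteins Igfbp7 (ENSMUSG00000036256) had the highest level of any member in any class, 2505 CPM (95% 2486 to 2524) in matrix-gene cells. It stood there at 2589, 2708, 3655 and 2431 CPM by library, against 829, 1035, 1284 and 908 CPM in mesothelial-gene cells. Cycling matrix-gene cells held 2259 CPM, Pi16-positive cells 1343, Serpinb2-gene cells 1205 and melanoma cells 197 CPM. Thinned to equal depth, 88.3% of matrix-gene, 67.3% of Pi16-positive, 63.1% of Serpinb2-gene, 56.3% of mesothelial-gene and 14.1% of melanoma cells had a UMI of it.

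Igfbp6 (ENSMUSG00000023046), the binding protein that prefers IGF-2, ran the other way. It reached 2083 CPM (2039 to 2129) in Pi16-positive and 1884 CPM (1867 to 1902) in mesothelial-gene cells. Mesothelial-gene cells held 1876, 2106, 2372 and 1822 CPM by library, against 313, 211, 244 and 387 CPM in matrix-gene cells. No matrix-gene value came near a mesothelial-gene value. Unnamed cells at 952 CPM and cycling mesothelial-gene cells at 942 CPM lay between, and melanoma cells stood at 124 CPM. The thinned shares were 76.0% in mesothelial-gene, 74.6% in Pi16-positive, 22.9% in matrix-gene and 10.4% in melanoma cells.

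Igfbp4 (ENSMUSG00000017493), which is cut by PAPP-A to free IGF, was high in both Pi16-positive cells (1504 CPM, 1466 to 1543) and matrix-gene cells (1372 CPM, 1358 to 1386). The library ranges of these classes overlapped, at 1426 and 1499 CPM in the former and 867, 1642, 639 and 1415 CPM in the latter. Matrix-gene Igfbp4 moved with Igf1 across the libraries, the tdTomato+ eGFPneg library being highest and the tdTomato+ eGFP+ library lowest for both. Mesothelial-gene cells held 520 CPM and melanoma cells 137 CPM.

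Igfbp5 and Igfbp3 were minor. Igfbp5 (ENSMUSG00000026185), a matrix-bound binding protein, was highest in Pi16-positive cells at 305 CPM (288 to 322), followed by 109 CPM in mesothelial-gene and 96.1 CPM in matrix-gene cells. It sat in few cells: 16.4% of thinned Pi16-positive cells had a UMI, and the highest single cell had 16 of its 1000. The top 10% of cells held 75.5% of the UMIs, a share that also reflects the low total of 412 UMIs in 1577 thinned cells. Igfbp3 (ENSMUSG00000020427), the main serum carrier of IGF, was highest in Serpinb2-gene cells at 151 CPM (148 to 155), by library 163, 163, 133 and 98.5 CPM. Matrix-gene Igfbp3 varied more between libraries relative to its level than the other members above 10 CPM, from 44.8 CPM in tdTomatoneg eGFPneg to 151 CPM in tdTomatoneg eGFP+ cells. Igfbp2 (ENSMUSG00000039323) gave 377 UMIs in 279 of all kept cells. Its highest level was 4.65 CPM in mesothelial-gene cells.

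**Figure D2:**
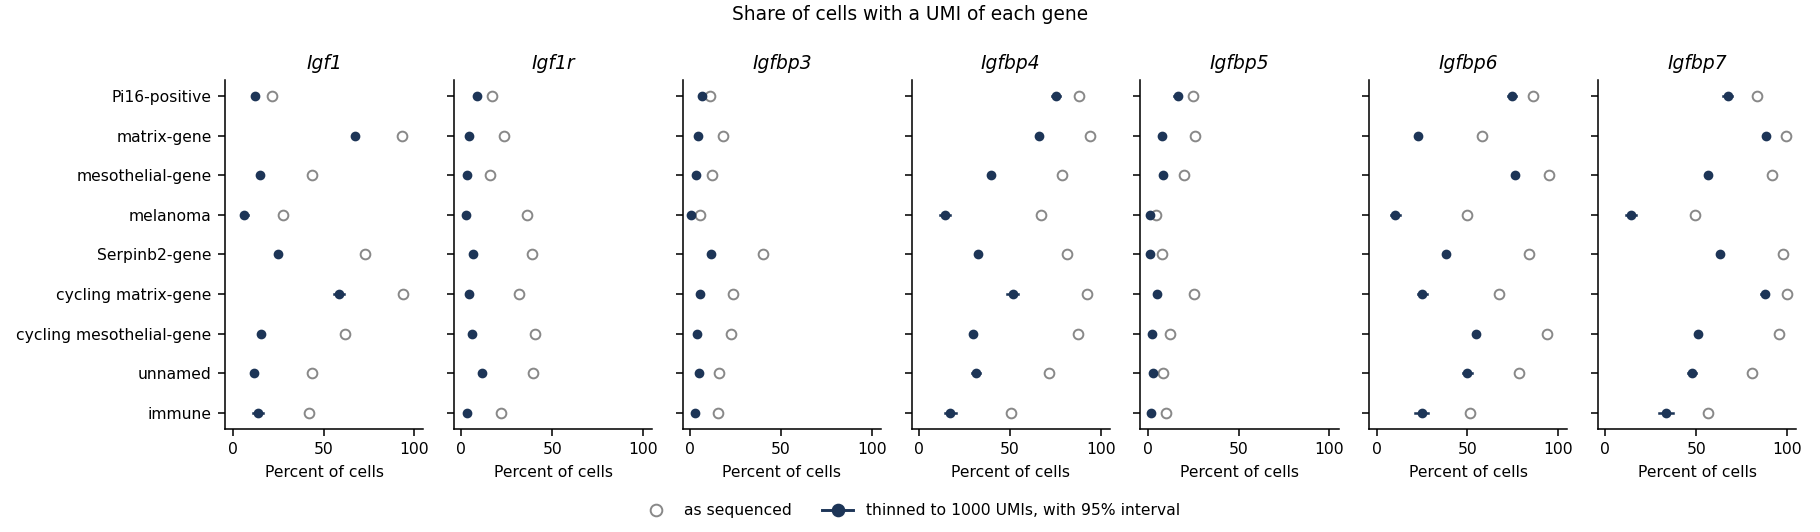
Percent of cells of each class with at least 1 UMI of 7 IGF genes, as sequenced (open) and after thinning each cell to 1000 UMIs (filled, with exact 95% intervals). Thinning takes melanoma cells from 36.0 to 2.60% for Igf1r, while 88.3% of matrix-gene cells keep Igfbp7.

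Summed over Igfbp1 to Igfbp7, binding-protein transcripts made up 5320 CPM in Pi16-positive, 4390 in matrix-gene, 3457 in mesothelial-gene and 469 CPM in melanoma cells, but the classes divided the sum differently. In matrix-gene cells Igfbp7 took 57.1% and Igfbp4 31.3% of it. Igfbp7 came first in 4 of 4 libraries and in 6 of 6 groups of at least 50 cells split by library and by Xist or Y-linked UMIs. In mesothelial-gene cells Igfbp6 took 54.5% and Igfbp7 25.9%, and Igfbp6 came first in 4 of 4 libraries and 5 of 5 such groups. Pi16-positive cells were more even, with 39.2% Igfbp6, 28.3% Igfbp4 and 25.2% Igfbp7, Igfbp6 being first in 2 of 2 libraries. Melanoma cells had Igfbp7 first at 42.0% and Igfbp4 second at 29.2%, but only in 1 of 3 libraries. Igfbp4 came first in the tdTomatoneg eGFP+ melanoma cells, with a log2 ratio to Igfbp7 of 0.61 (0.31 to 0.92). In tdTomato+ eGFPneg melanoma cells that ratio was 0.12 (−0.28 to 0.52), so Igfbp4 came first by count but the order was not resolved. Without the tdTomatoneg eGFPneg library the log2 ratio of Igfbp7 to the next gene was −0.42.

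The leader among single cells followed the sums in the stromal classes. Of thinned cells with any binding-protein UMI, 58.9% of matrix-gene cells were led by Igfbp7 and 22.6% by Igfbp4. Igfbp6 led 50.9% of mesothelial-gene cells and 36.8% of Pi16-positive cells. Ties took 15.0% of matrix-gene and 21.0% of mesothelial-gene cells. Only 30.4% of thinned melanoma cells had any binding-protein UMI.

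**Figure D3:**
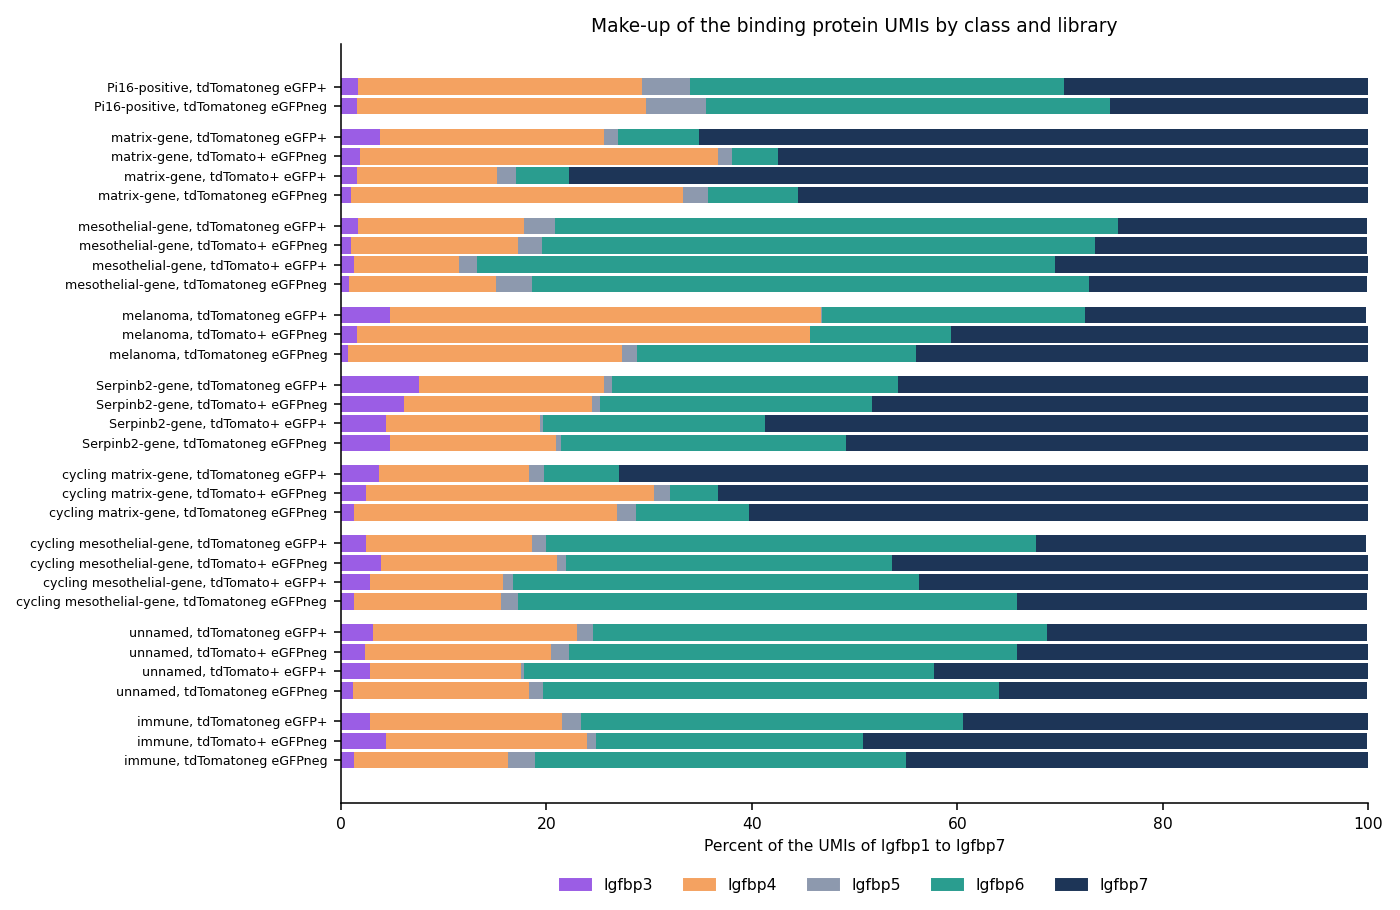
Share of binding-protein UMIs taken by each Igfbp gene in each class. Igfbp7 takes 57.1% in matrix-gene cells, and Igfbp6 takes 54.5% in mesothelial-gene and 39.2% in Pi16-positive cells.

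Serpinb2-gene cells and cycling matrix-gene cells were also led by Igfbp7, at 49.1 and 62.6%. Cycling mesothelial-gene cells had Igfbp6 first at 43.5%, but Igfbp7 came first in both tdTomato+ libraries and Igfbp6 in only 2 of 4. Unnamed cells were led by Igfbp6 at 44.0%.

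Within a class, the binding proteins were not spread evenly over cells with and without Igf1. Among thinned matrix-gene cells Igfbp4 was found in 72.9% of the 2312 cells with an Igf1 UMI and in 52.5% of the 1128 without. Igfbp6 went the other way, at 21.3 and 26.2%, and Igfbp7 was close in both, at 89.0 and 86.9%. In Pi16-positive cells Igfbp6 was found in 55.3% (48.1 to 62.4) of the 197 Igf1 cells and in 77.3% (75.0 to 79.5) of the others. For Igfbp7 the shares were 79.2 and 65.7%. The gaps were not particular to stromal cells. In the 39 melanoma cells with Igf1, Igfbp4, Igfbp6 and Igfbp7 were found in 38.5, 17.9 and 53.8%, against 12.7, 9.90 and 11.5% of the others. In immune cells the shares were 33.8, 27.3 and 59.7% against 14.6, 24.4 and 29.2%. Cells of a library are not replicates, so these shares describe the cells pooled. The parts of RNA from other cells and of differences between libraries in them were not tested.

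Matrix-gene cells were set against mesothelial-gene cells in 4 libraries and 9269 genes of at least 10 CPM. Of these genes 8.89% were higher and 3.97% lower in matrix-gene cells, and of the 7 members at that level 2 were higher and 1 lower. Igf1 was higher by log2 folds of 2.90, 3.38, 2.48 and 3.23 in the order of libraries above. Igfbp7 was higher by 1.64, 1.39, 1.51 and 1.42. Igfbp6 had log2 folds of −2.58, −3.32, −3.28 and −2.24. The other members did not pass in every library: Igfbp4 had log2 folds from 0.58 to 1.56, Igfbp3 from 0.42 to 1.39, Igf1r from 0.10 to 1.33 and Igfbp5 from −0.93 to 0.23. The median log2 fold was 0.91 for the members and 0.11 for all genes. Within Xist-only cells the mean log2 fold of Igf1 was 2.60, and within Y-only cells 3.52.

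**Figure D4:**
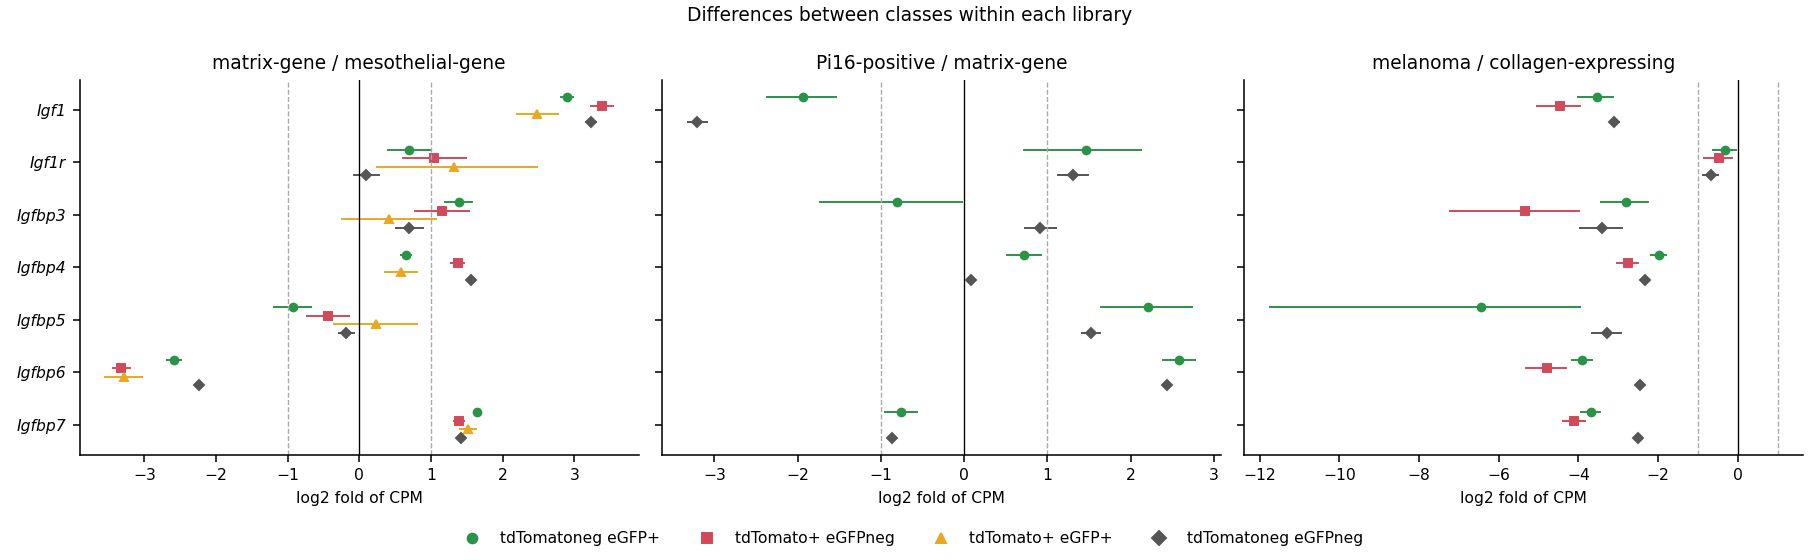
log2 fold of 7 IGF genes in 3 class comparisons, 1 point per library with its 95% counting interval. Dashed lines mark a log2 fold of 1 either way. Igf1 and Igfbp7 lie to the right and Igfbp6 to the left in all 4 libraries for matrix-gene against mesothelial-gene cells. Igfbp5 of tdTomato+ eGFPneg melanoma cells had 0 UMIs and is not drawn.

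Pi16-positive cells were set against matrix-gene cells in the 2 libraries that held enough of both, with 9.28% of 9554 genes higher and 4.29% lower. Here 3 of the 7 members were higher and 1 lower. Igfbp6 was higher by log2 folds of 2.58 and 2.44, Igfbp5 by 2.20 and 1.52, and Igf1r stood at 139 against 50.7 CPM in the first and 98.5 against 39.9 CPM in the second. Igf1 had log2 folds of −1.94 and −3.21. Igfbp4 at 0.72 and 0.08 and Igfbp7 at −0.76 and −0.86 did not pass. The median was 0.40 for the members and 0.17 for all genes.

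The outcome depended on how the class was drawn. In an alternative added to this comparison after the data had been seen, cells were instead taken by their own UMIs. They had a Pi16 UMI, none of Mfap4, Msln or Upk3b, and did not meet the rule of another class. Lum was not excluded, so cells of the matrix-gene kind without an Mfap4 UMI could enter, and their part was not tested. In all, 1880 cells with a median of 2850 UMIs were chosen, and 1127 of them belonged to the Pi16-positive cluster. Igf1 then stood at 1093 CPM rather than 171 CPM, Igfbp6 at 1004 rather than 2083 CPM and Igfbp7 at 1611 CPM, and no member passed the fold against matrix-gene cells chosen likewise. Igfbp4 led these cells in the tdTomatoneg eGFPneg library and Igfbp7 in the others. The low Igf1 and high Igfbp6 were values of the cluster and not of all cells with a Pi16 UMI.

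Melanoma cells were set against all collagen-expressing cells in 3 libraries, where 12.1% of 9620 genes were higher and 18.8% lower. Of the 7 members, 6 were lower and none higher, and the median of the members was −3.71 against 0.05 for all genes. Igf1r was the member that did not pass, with log2 folds of −0.33, −0.49 and −0.69. Genes of the collagen-expressing cells were read in the melanoma cells for scale. Summed over libraries, Col3a1 in melanoma cells was 8.85% of its level in collagen-expressing cells, Col1a1 8.11%, Serpinb2 9.51% and Dcn 10.4%. Igfbp3 at 7.08%, Igfbp5 at 10.8% and Igf1 at 12.1% lay near these values, Igfbp6 stood at 14.0%, Igfbp7 at 15.3% and Igfbp4 at 22.4%. The values for Igfbp6 and Igfbp7 came from the tdTomatoneg eGFPneg library, where they were 18.1 and 17.5% against 10.6 to 14.4% for the 4 scale genes. In the tdTomatoneg eGFP+ library Igfbp6 at 6.64%, Igfbp7 at 7.74% and Igf1 at 8.56% lay within the scale of 6.86 to 12.8% or just under it. In the tdTomato+ eGFPneg library Igfbp6 at 3.63% and Igfbp7 at 5.82% stood at the ends of a scale of 3.66 to 5.77%, and Igf1 lay inside it. Igfbp4 lay above the scale in all 3 libraries, at 25.2, 14.7 and 20.0%. Igf1r lay furthest above it, at 63.7% (57.6 to 70.2) pooled and 79.5, 71.4 and 62.1% by library. The part that RNA from other cells had in the low values was not tested.

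Cycling cells were set against non-cycling cells of the same kind. For matrix-gene cells 4.22% of genes were higher and 0.145% lower in 3 libraries, and none of the 7 members passed. Igf1 had log2 folds from −0.50 to −0.38 and Igfbp4 from −0.73 to −0.62. For mesothelial-gene cells 5.0% of genes were higher and 0.616% lower in 4 libraries, and of the members Igfbp5 alone passed, with log2 folds from −2.20 to −1.54. Igfbp6 ranged from −1.56 to −0.85, Igfbp4 from −0.72 to −0.41, and Igf1r from 0.58 to 1.57. Cycling mesothelial-gene cells thus held less Igfbp6 in every library, but not past the fold in all of them.

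The reporter contrast asked whether current Cxcl13 activity went with the IGF genes. It set the tdTomato+ eGFPneg library against the tdTomatoneg eGFPneg library, 1 library each. In matrix-gene cells 1.14% of genes were higher and 0.564% lower by a log2 fold over 1, and none of the 7 members was. Igf1 differed by 0.36, Igfbp4 by 0.21, Igfbp7 by 0.16, Igf1r by 0.64, Igfbp3 by 0.95, Igfbp5 by −0.67 and Igfbp6 by −0.88. In mesothelial-gene cells (2.81% higher, 3.26% lower) and Serpinb2-gene cells (2.32% higher, 0.901% lower) no member passed either. In Serpinb2-gene cells Igfbp5 came closest at 0.99, followed by Igfbp3 at 0.73 and Igf1 at 0.56. With 1 library a side, the reporter state, the animals and the library cannot be told apart.

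Male and female mice were used, and how they were divided over the libraries is not given in the sources used here. Cells with Xist UMIs only were therefore set against cells with UMIs of Y-linked genes only, inside each class and library. This comparison was added after the data had been seen. In mesothelial-gene cells 3.18% of genes were higher and 0.569% lower in Xist-only cells in 2 libraries, and of the 7 members Igf1 and Igfbp5 were higher. Igf1 had log2 folds of 1.28 and 1.23 and Igfbp5 of 1.43 and 1.99, while Igfbp3 stood at −0.98 and −0.96. In matrix-gene cells (0.934% higher, 0.304% lower, 3 libraries) no member passed. There Igf1 ranged from 0.32 to 0.61, Igfbp4 from 0.57 to 1.01 and Igfbp6 from −1.67 to −0.89. In Serpinb2-gene cells (0.367% higher, 0.287% lower, 4 libraries) Igfbp5 was higher, from 1.72 to 2.16. All Serpinb2-gene cells together held only 749 Igfbp5 UMIs, and the interval in the tdTomato+ eGFP+ library included 0. How many animals stand behind each mark is not given, so sex and single animals cannot be told apart. Among the melanoma cells, which come from a cell line, 45 were Xist-only and 45 Y-only. A mark therefore need not give the sex of the cell it was read in, and the part of RNA from other cells in the marks was not tested.

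**Figure D5:**
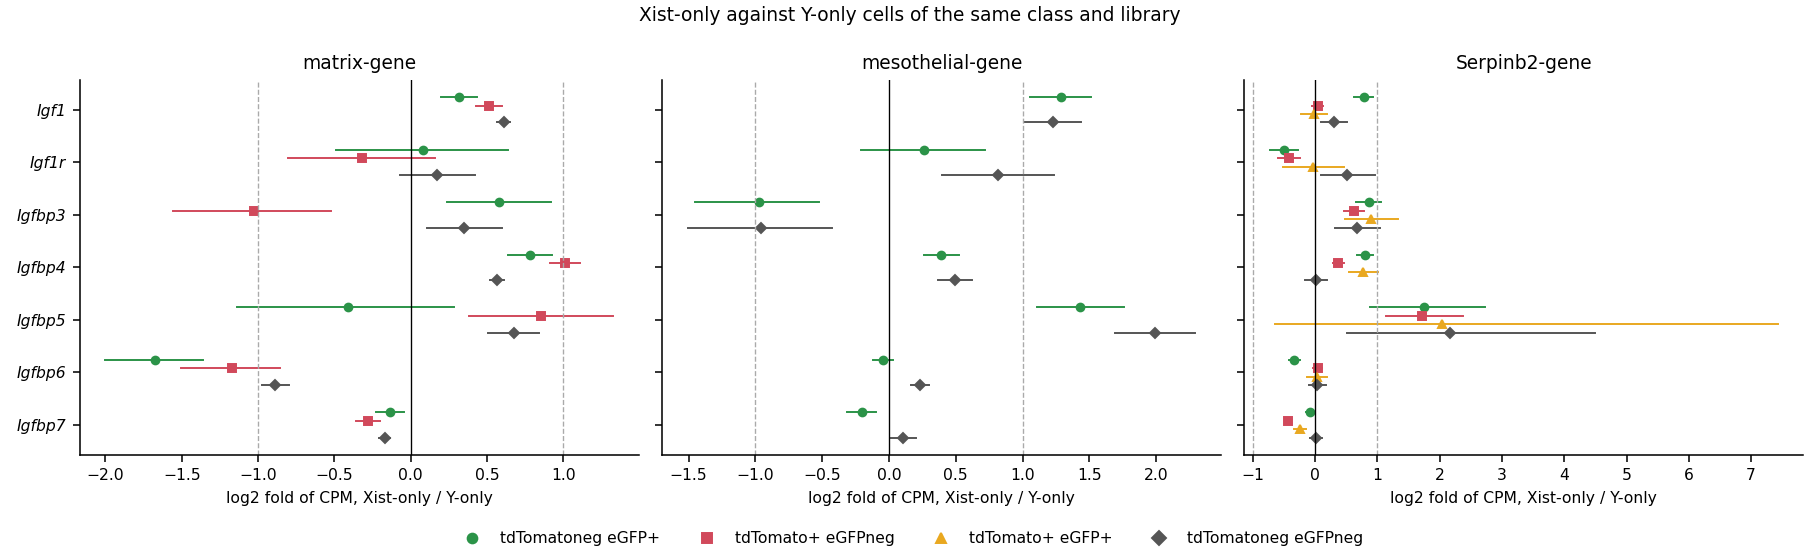
log2 fold of CPM in Xist-only over Y-only cells of the same class and library, for 7 IGF genes and 3 classes, with 95% counting intervals. Dashed lines mark a log2 fold of 1 either way. Igf1 lies between 1.23 and 1.28 in mesothelial-gene cells and between 0.32 and 0.61 in matrix-gene cells.

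The rest of the pathway was read from a list of 32 further genes in the 8 classes other than immune. Of these 21 reached 10 CPM in a class, and 14 of the 21 differed by more than 2 on the log2 scale between their highest and lowest class. Pappa, the protease that cuts IGFBP-4, was highest in matrix-gene cells at 91.8 CPM against 15.8 CPM in Pi16-positive and 4.01 CPM in melanoma cells. Stc1, which encodes a secreted inhibitor of PAPP-A, stood at 17.2 CPM in matrix-gene, 20.0 CPM in Serpinb2-gene and 1.70 CPM in mesothelial-gene cells. Ghr, the growth hormone receptor that drives Igf1 in liver, stood at 139 CPM in matrix-gene and 38.6 CPM in mesothelial-gene cells. The serine protease gene Htra3 stood at 417 CPM in Pi16-positive, 126 CPM in matrix-gene and 29.5 CPM in mesothelial-gene cells. Another protease gene, Htra1, was highest in Pi16-positive cells at 340 CPM.

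The insulin receptor substrate gene Irs1 was highest in Pi16-positive cells at 17.1 CPM, as were Pik3r1, a regulatory subunit of PI3-kinase, at 72.7 CPM and Foxo1, a transcription factor held back by AKT, at 61.9 CPM. Irs2 at 45.7 CPM, the adaptor Grb10 at 155 CPM, the IGF-2 clearance receptor Igf2r at 123 CPM and the RNA-binding protein gene Igf2bp2 at 34.9 CPM were highest in unnamed cells. Stc2, a relative of Stc1, was highest in Serpinb2-gene cells at 29.1 CPM. Socs2, a feedback inhibitor of growth hormone signaling, was highest in cycling matrix-gene cells at 56.7 CPM. Of these classes, melanoma cells were lowest for each of the 14 genes.

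Counted by comparison, 2 of 20 other pathway genes were higher in matrix-gene than in mesothelial-gene cells, Stc1 (log2 folds from 2.59 to 4.44) and Ghr (1.72 to 2.03), and none was lower. In Pi16-positive against matrix-gene cells 3 of 21 were higher, Htra3, Irs1 and Foxo1, and Pappa was lower. In melanoma cells 2 of 21 were higher, Akt1 and Igf2bp3, and 12 were lower. These counts stand beside the same background percentages as those of the members.

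The genes whose pattern was most like a member were taken by Pearson's r of log2 levels over 31 sums of a class in a library, among 11620 genes. The sums share libraries and differ in depth, so r is a description. Igf1 was nearest to Olfml3, Col6a3 and Col4a1 (r from 0.95 to 0.96), and Igfbp7 to Fkbp7, Vkorc1 and Fstl1 (0.97 to 0.98). Igfbp4 was nearest to Il11ra1 (0.96) and Igfbp6 to Sbsn and Timp2 (both 0.93). Igfbp5 was nearest to Plac9 (0.94) and Igfbp3 to Errfi1 (0.90).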

How the data were processed

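The authors deposited filtered 10x matrices of raw UMI counts per gene and cell, 1 per library. The submitters' processing notes name Cell Ranger 10.0.0, STAR, Seurat 5.0 and GRCm39, whereas the file headers name Cell Ranger 8.0.0; strand and intron settings are not given in the sources used here. Barcodes were kept at 500 to 6000 genes and up to 10% mitochondrial UMIs. Doublets were left in, and removing the top-scoring cells was an alternative. Melanoma and immune groups were set aside, and the rest were clustered with Seurat 5.3.0 in R 4.3.3 (2000 variable genes without IGF pathway genes, 25 principal components). A group was named where the mean log2 ratio of its markers passed 1. Where the cell cycle markers passed 1, any positive mean ratio of the matrix-gene or mesothelial-gene markers was enough. Counts were summed by class and library (pandas 2.3.3 in Python 3.11.15, with scipy 1.17.1 for intervals, numpy 2.4.6 and matplotlib 3.10.9), giving CPM, exact Poisson and binomial intervals, and conditional binomial intervals of folds. The genes named are the 9 members, the genes of a 41-gene pathway list with at least 10 CPM in a class and a log2 range over 2 between classes (others are named as passing a comparison), and genes from the 3 most like each member; those for Igf1r are not reported here. On simulated counts for the matrix-gene against mesothelial-gene comparison, 100 of 100 genes made 4-fold higher and 96 of 100 made lower were called, with 0 of 8573 unchanged genes. The simulated counts held counting noise only, with no variation between cells or animals. They therefore give no error rate for the calls in these data. Members, lists and classes were chosen with earlier results of these data known.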

Additional observations from a re-analysis of the deposited data

Results flagged for a closer look

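Some contrasts had opposite signs in different classes, with every counting interval on its own side of 0. The difference between the classes was not tested in any of them, since each population had 1 library. For Xist-only against Y-only cells, the mean log2 fold of Igfbp3 was higher by 1.73 in Serpinb2-gene than in mesothelial-gene cells. For the tdTomato+ eGFPneg against the tdTomatoneg eGFPneg library, the log2 fold of Igfbp5 was higher in Serpinb2-gene cells by 1.66 than in matrix-gene cells and by 1.41 than in mesothelial-gene cells. In the same contrast the log2 fold of Igfbp6 was higher by 1.17 in Serpinb2-gene and by 1.08 in mesothelial-gene cells than in matrix-gene cells.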

How the results depend on the processing

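No paired analysis was possible because each population had 1 library and all share the replicate number 1, which holds for contrasts between populations. Class comparisons were already read inside each library, so the library was their block. Settings were changed one at a time, and a value counted as moved when it shifted by more than the SD between libraries or, for a count, by over 1.5 times. All alternatives for the melanoma and cycling comparisons, and those for the Pi16-positive comparison other than the low-value filter and the limit of 20 cells, were chosen after seeing the data. The classes led by the same binding protein and the members highest in the same class were not given for cells split by mark, which left under 50 cells in a class. The cause of the shifts was not tested.

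Directions of the leading binding protein turned in 3 places. With classes from marker UMIs the log2 ratio of Igfbp6 to the next binding protein in Pi16-positive cells was −0.68, and it was 0.23 to 0.48 with a library left out. In melanoma cells the ratio of Igfbp7 to the next was −0.42 to 0.66 with a library left out, lowest without the tdTomatoneg eGFPneg library. In cycling mesothelial-gene cells the ratio was −0.15 in Xist-only cells. With at least 9 groups the ratio of Igfbp6 in mesothelial-gene cells was 1.55. After thinning, 3 of 7 members had their highest share of cells in the same class of 4.

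With marker-UMI classes no member was higher or lower in Pi16-positive against matrix-gene cells, where 91 genes were higher and 71 lower. For cycling mesothelial-gene cells 1 member was higher by the mean over libraries and, at most, with a library left out (0 to 1), and 2 were lower by the mean over libraries and with at least 9 groups.

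Counts of genes past the fold moved more. Matrix-gene against mesothelial-gene cells gave 1518 higher and 757 lower by the mean over libraries, 297 and 116 after thinning, 816 lower with at least 9 groups and 692 lower in Xist-only cells. Pi16-positive cells gave 1592 higher and 781 lower by the mean over libraries, 1391 higher without the low-value filter, 652 lower in Xist-only cells, 233 lower from classes of 20 cells, and 887 to 2090.0 higher and 410.0 to 1212 lower with a library left out. Melanoma cells gave 2951 higher without the filter and 675 lower after thinning. Cycling matrix-gene cells gave 20 lower with at least 9 groups and with median-of-ratios size factors, 92 by the mean over libraries, 57 in Xist-only and 55 in Y-only cells, 34 without the filter, 8 from classes of 20 cells, and 13 to 62 with a library left out. Cycling mesothelial-gene cells gave 939 higher and 182 lower by the mean over libraries, 188 and 19 after thinning, 345 lower with at least 9 groups and 225 lower in Xist-only cells.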

Other observations

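Cells of the immune class also carried IGF transcripts. Igf1 stood at 233 CPM (95% 218 to 248) in 391 immune cells with UMIs of both C1qa and C1qb, complement genes of macrophages, and at 421 CPM (381 to 464) in 142 immune cells with neither. The same cells held Col3a1, a collagen gene of stromal cells, at 7398 and 8019 CPM, and the part of RNA from collagen-expressing cells in their Igf1 was not tested. Igfbp6 stood at 624 CPM in the first and 345 CPM in the second, and Igfbp7 at 744 and 990.4 CPM.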
